A study of Saccharomyces cerevisiae with 8 samples.

Results

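General stress and carbohydrate reserve genes of budding yeast were examined in peaks of RNA polymerase II (RNAPII), the enzyme that transcribes protein-coding genes. The set held 40 genes of the 6002 nuclear protein-coding open reading frames (ORFs) of the R64 annotation. They were listed by symbol as genes of the general stress response and of trehalose and glycogen metabolism. The list was chosen by gene function with peak coverage and fold ranks from earlier results of the same peak lists in view. These values are therefore given as a description, with no test.

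RNAPII was immunoprecipitated (IP) from cross-linked chromatin with the 8WG16 antibody, which recognises its largest subunit, Rpb1, and the DNA was sequenced. One strain carried Tfg1-K60,61R-HA, an HA-tagged Tfg1 in which lysines 60 and 61 were changed to arginine. The other carried Tfg1-HA, with the normal lysines and the same tag. Tfg1 is the largest protein of TFIIF, a general transcription factor that enters the promoter together with RNAPII, and the lysine changes impair its modification by the small protein SUMO. A further amino acid of Tfg1 was altered by accident in the Tfg1-K60,61R-HA strain, so an effect of the lysines alone cannot be told apart from an effect of that change. Both strains are of the W303a background and were harvested in mid-log phase from SC medium kept at 30 °C, with no added stress. Each strain had 2 independent IP libraries, and 1 peak list was available for each, called against input chromatin.

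The general stress response of yeast is driven largely by the zinc finger activators Msn2 and Msn4, which bind the stress response element, with the core sequence AGGGG. While glucose is plentiful, protein kinase A keeps both activators largely out of the nucleus. When glucose runs low, or under heat, osmotic or oxidative stress, they enter the nucleus and switch on chaperones, antioxidant enzymes and the enzymes that make trehalose, a protective disaccharide, and glycogen, the storage polymer of glucose.

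The names inside the lists did not follow the sample labels. Upper case was used for the peaks of replicate 1 of Tfg1-K60,61R-HA and of replicate 1 of Tfg1-HA. Lower case, the usual way to write a mutant allele in yeast, was used in the other lists. The deposited lists were named in the same case, with an added m in the lower-case names. A number in those list names did follow the labels, the same in both Tfg1-HA lists and another in both Tfg1-K60,61R-HA lists. Whether case or number marks the genotype was not tested. If upper case stood for the normal gene, replicate 1 of Tfg1-K60,61R-HA and replicate 2 of Tfg1-HA would have each other's genotype. The labels were kept, and each direction below is one between lists as labelled. With these genotypes exchanged, the main differences of the stress and reserve genes would turn round, as given beside them. The deposited Tfg1-K60,61R-HA replicate 1 list also held 894 rows that repeated the Tfg1-K60,61R-HA replicate 2 list. They were removed, which left 1098 peaks in replicate 1 and 894 in replicate 2 of Tfg1-K60,61R-HA, against 1257 in replicate 1 and 1171 in replicate 2 of Tfg1-HA. The lists hold no read counts, so the depth reached by a library cannot be read from them. The lowest fold over background of a called peak was 1.1 and 1.17 in Tfg1-K60,61R-HA, against 1.19 and 1.21 in Tfg1-HA. At the same fold of 2.99, the peak on YGP1 had a −log10 p-value of 147 in Tfg1-K60,61R-HA replicate 1, against 81.4 in Tfg1-HA replicate 1. Whether the lists differed in power to call weak peaks was not tested. Calls of peaks and their folds were compared here, not RNAPII densities. For the mating type that the strain name gives, 2 and 3 of 6 a-specific genes were occupied in Tfg1-K60,61R-HA, against 3 and 4 in Tfg1-HA, while none of 4 alpha-specific genes was occupied in any list.

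The stress response element core was common upstream of these genes. In the window that runs from 250 bases before to 50 bases after the first base of the ORF, AGGGG was found on at least 1 strand (AGGGG or its complement CCCCT) for 26 of 40 genes, or 65%, against 21.6% of all 6002 ORFs. At least 2 copies were found for 14 of them, or 35%, against 2.93% of all ORFs. In the 500 bases before the ORF, 38 of 40 genes (95%) had a copy, against 34.1% of all ORFs, and 31 (77.5%) had at least 2, against 8.13%. The genes with no copy there were GAC1 and ALD2. The genes had been listed as of the Msn2 and Msn4 type, so these shares describe the list.

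Stretches that hold these copies are shown for 6 genes that differed in how many lists had them under RNAPII. HSP12 was occupied in every list, HSP104 and TPS2 in every list but Tfg1-HA replicate 2, DDR2 and CTT1 in the Tfg1-K60,61R-HA lists only, and HSP42 in Tfg1-K60,61R-HA replicate 1 alone. They were read 5′ to 3′ along the coding strand from the R64 reference genome of RefSeq, which is that of strain S288C and not of W303a. Capitals mark AGGGG and CCCCT. The stretches lie at chrVI:106813-107078 (plus strand) for HSP12, chrXII:88363-88463 (plus strand) for HSP104, chrIV:593395-593597 (plus strand) for TPS2, chrXV:231918-232011 (minus strand) for DDR2, chrVII:654248-654513 (plus strand) for CTT1 and chrIV:806401-806451 (plus strand) for HSP42.
HSP12: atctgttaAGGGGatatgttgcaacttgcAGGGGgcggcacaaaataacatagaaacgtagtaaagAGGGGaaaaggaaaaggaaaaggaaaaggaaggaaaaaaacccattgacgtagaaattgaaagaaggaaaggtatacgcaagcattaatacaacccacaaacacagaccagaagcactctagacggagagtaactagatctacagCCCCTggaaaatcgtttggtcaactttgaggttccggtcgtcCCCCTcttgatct
HSP104: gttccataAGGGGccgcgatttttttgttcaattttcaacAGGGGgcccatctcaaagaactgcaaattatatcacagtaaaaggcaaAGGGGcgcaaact
TPS2: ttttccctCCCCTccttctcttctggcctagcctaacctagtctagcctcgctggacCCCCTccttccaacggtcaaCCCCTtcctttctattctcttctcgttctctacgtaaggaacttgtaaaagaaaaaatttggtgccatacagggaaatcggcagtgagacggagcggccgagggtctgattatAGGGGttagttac
DDR2: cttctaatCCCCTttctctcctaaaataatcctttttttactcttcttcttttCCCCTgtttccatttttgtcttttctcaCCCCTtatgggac
CTT1: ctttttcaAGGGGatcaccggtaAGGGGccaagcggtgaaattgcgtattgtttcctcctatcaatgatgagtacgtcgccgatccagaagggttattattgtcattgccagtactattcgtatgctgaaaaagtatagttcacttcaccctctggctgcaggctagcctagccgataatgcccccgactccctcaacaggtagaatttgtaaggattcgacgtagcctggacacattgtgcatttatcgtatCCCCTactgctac
HSP42: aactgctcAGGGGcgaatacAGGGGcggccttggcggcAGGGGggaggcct
The copies were counted in each stretch as printed. HSP12 held 5 copies, TPS2 held 4, and HSP104, DDR2, CTT1 and HSP42 held 3 each. The CCCCT copies of DDR2 all lay in the same orientation, while HSP12, TPS2 and CTT1 had copies in both.

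The number of copies was set beside occupancy, with no test. In the 500 bases before the ORF, the median was 2 copies for the 13 genes occupied in no list (range 0 to 4), and 2 for the 7 occupied in 1 list (range 0 to 3). It was 3.5 for the 2 genes occupied in 2 lists, 3 for the 12 occupied in 3 lists (range 1 to 6), and 2.5 for the 6 occupied in all 4 lists (range 1 to 5). A pattern for the heat shock element, which the activator Hsf1 binds, was searched on both strands as 3 units, GAA and TTC in turn with 2 free bases between units, starting with either. It was found in the 500 bases before HSP42, HSP78, HSP104, TSL1, YGP1 and GND2, or 15% of the 40 genes, against 1.48% of all ORFs. A match is a match of letters only, and binding was not measured.

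**Figure D1:**
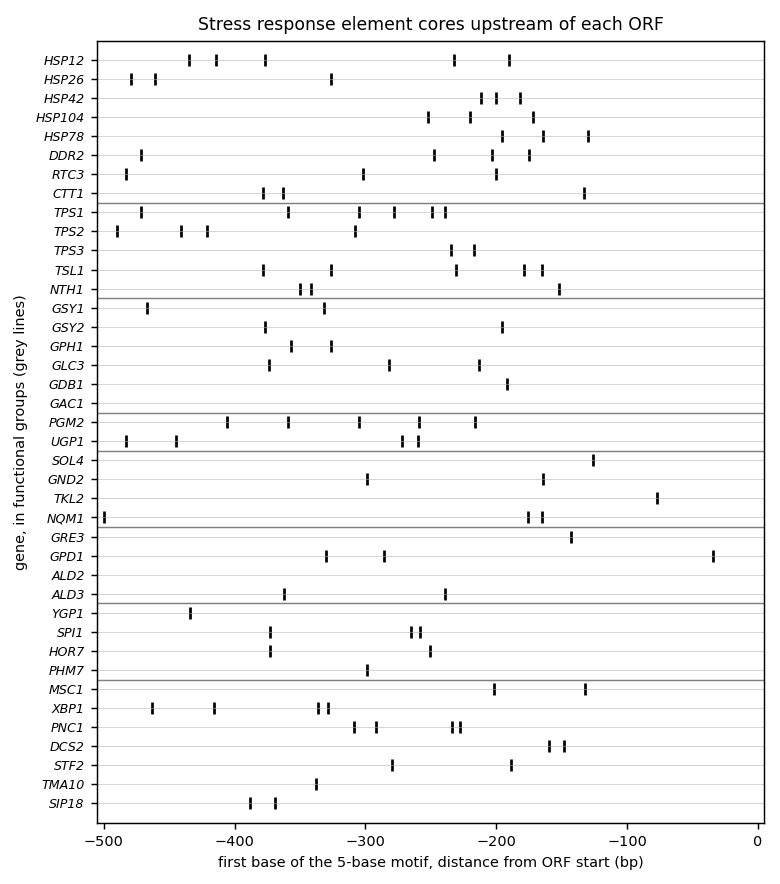
Positions of the stress response element core (AGGGG on either strand) in the 500 bases before each of the 40 ORFs. The x axis is the distance of the first motif base from the ORF start in bp, each tick is 1 copy, and grey lines separate functional groups; 38 of the 40 genes have a tick, and GAC1 and ALD2 have none.

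As labelled, more of these genes lay under RNAPII peaks in the Tfg1-K60,61R-HA lists. A gene was called occupied when at least 50% of its ORF length lay under peaks of a list. Of the 40 genes, 27 were occupied in replicate 1 and 20 in replicate 2 of Tfg1-K60,61R-HA, against 18 in replicate 1 and 6 in replicate 2 of Tfg1-HA. The background over all 6002 ORFs was 16.9% and 12.7% occupied in the Tfg1-K60,61R-HA lists, against 19.9% and 17.3% in the Tfg1-HA lists. The mean was 23.5 ± 4.95 genes in Tfg1-K60,61R-HA and 12 ± 8.49 in Tfg1-HA (SD, n = 2 each), a difference of 11.5 genes.

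All ORFs together went the other way. They numbered 1015 and 762 occupied in the Tfg1-K60,61R-HA lists, against 1193 and 1041 in the Tfg1-HA lists, with means of 888.5 ± 179 and 1117 ± 107 (SD, n = 2 each). A two-sided exact permutation test gave p = 0.333, the smallest value that 2 lists against 2 allow. The 40 genes made up 2.66% and 2.62% of the occupied ORFs in the Tfg1-K60,61R-HA lists, against 1.51% and 0.576% in the Tfg1-HA lists.

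**Figure D2:**
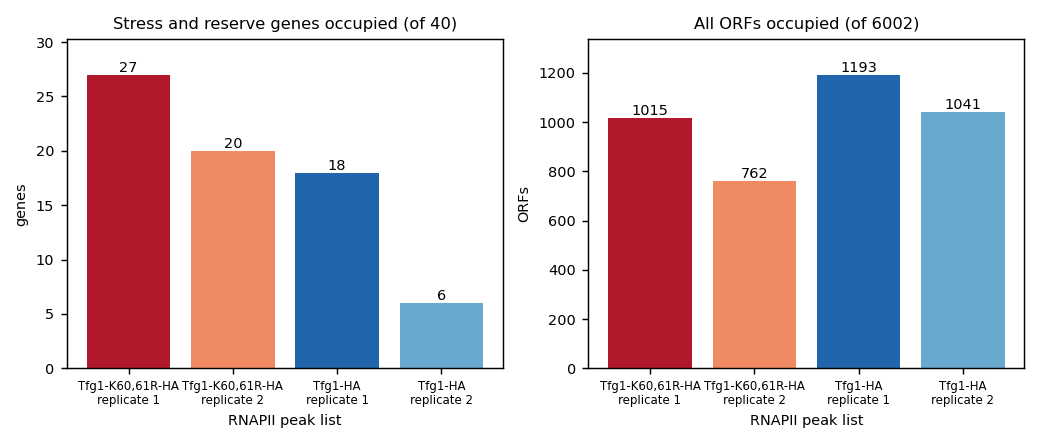
Number of occupied genes (at least 50% of the ORF under peaks) in each RNAPII peak list, for the 40 stress and reserve genes on the left and for all 6002 ORFs on the right. Each bar is 1 list; the stress and reserve genes number 27 and 20 in Tfg1-K60,61R-HA against 18 and 6 in Tfg1-HA, while all ORFs number 1015 and 762 against 1193 and 1041.

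The lists did not fall into 2 clear classes. Replicate 2 of Tfg1-K60,61R-HA and replicate 1 of Tfg1-HA, with 20 and 18 genes, differed by less than the replicates of either strain did. The largest count came from replicate 1 of Tfg1-K60,61R-HA and the smallest from replicate 2 of Tfg1-HA. These are the lists whose case and labelled genotype were at odds. With the genotypes of these lists exchanged, the difference was −9.5 genes in place of 11.5, so the direction rests on the labels. For all ORFs it was −202.5 in place of −228.5 and kept its direction. The difference of 11.5 genes was 8 when Tfg1-K60,61R-HA replicate 1 was left out and 15 when Tfg1-K60,61R-HA replicate 2 was, against 17.5 when Tfg1-HA replicate 1 was left out and 5.5 when Tfg1-HA replicate 2 was. When only peaks of at least 2-fold were used, 14 and 4 genes were occupied in Tfg1-K60,61R-HA, against 7 and 2 in Tfg1-HA, so that the groups overlapped. Over all 6002 ORFs the counts at that limit were 429 and 287 in Tfg1-K60,61R-HA, against 575 and 500 in Tfg1-HA.

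The occupied genes were nested. The 27 of Tfg1-K60,61R-HA replicate 1 included all 20 of Tfg1-K60,61R-HA replicate 2, these included all 18 of Tfg1-HA replicate 1, and those included all 6 of Tfg1-HA replicate 2. Occupied in all 4 lists were 6 genes (15%, against 10.8% of all ORFs), HSP12, RTC3, YGP1, HOR7, PNC1 and STF2. In every list but Tfg1-HA replicate 2 there were 12 (30%, against 0.716% of all ORFs), and they made up 12 of the 43 ORFs with that pattern in the genome.

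The Tfg1-K60,61R-HA lists alone held 2 genes, DDR2 and CTT1, with a background of 0.15% of all ORFs, or 9 ORFs. In Tfg1-K60,61R-HA replicate 1 alone there were 7 genes (17.5%, against 1.13% of all ORFs), HSP42, HSP78, GSY1, GLC3, GAC1, ALD3 and MSC1. Their folds over background there ran from 1.33 for HSP78 to 1.70 for ALD3, in the list with the lowest called fold, 1.1. No gene of the set had occupancy in Tfg1-HA replicates 1 and 2 but in no Tfg1-K60,61R-HA list, a pattern of 104 ORFs or 1.73%. The remaining 13 genes (32.5%, against 77.2% of all ORFs) were occupied in no list, and 11 of these had no peak on them at all.

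Peaks covered a mean of 68.0% and 46.4% of the length of the 40 ORFs in Tfg1-K60,61R-HA, against 44.9% and 16.9% in Tfg1-HA. The group means were 57.2% ± 15.3 and 30.9% ± 19.8 (SD, n = 2 each), a difference of 26.2 percentage points. That difference was 15.4 points when Tfg1-K60,61R-HA replicate 1 was left out, against 40.3 when Tfg1-HA replicate 1 was left out and 12.2 when Tfg1-HA replicate 2 was. With the exchanged genotypes it was −24.8 points. In length, 41.9 and 25.4 kb of these ORFs lay under peaks in Tfg1-K60,61R-HA, against 25.6 and 4.80 kb in Tfg1-HA. Coverage in both Tfg1-K60,61R-HA lists was above that in both Tfg1-HA lists for 4 genes, DDR2, CTT1, TSL1 and MSC1 (background 1.17%), and below it for none (background 8.86%). Within each replicate number, coverage was higher in Tfg1-K60,61R-HA for 6 genes in both pairs (background 1.98%) and lower for none (background 10.8%).

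**Figure D3:**
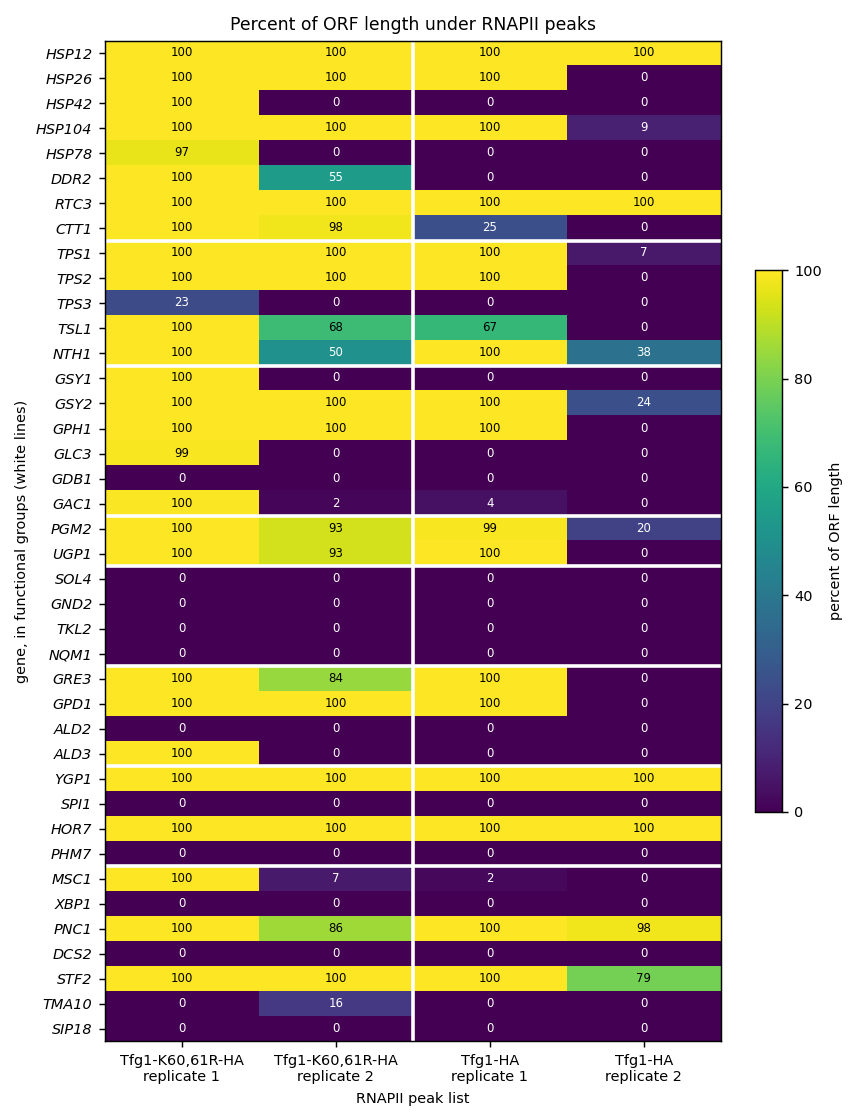
Percent of the ORF length under RNAPII peaks for each of the 40 genes (rows, in functional groups separated by white lines) in each of the 4 peak lists (columns). Colour and number both give the percent; full coverage reaches farthest down the Tfg1-K60,61R-HA replicate 1 column, where 27 genes are at or above 50%, and is rarest in Tfg1-HA replicate 2, where 6 are.

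Among the 8 chaperones and stress protection genes, all 8 were occupied in Tfg1-K60,61R-HA replicate 1 and 6 in replicate 2, against 4 in replicate 1 and 2 in replicate 2 of Tfg1-HA. HSP12 encodes a small protein that stabilises membranes, and its ORF (chrVI:107256-107585, a single exon) was wholly under peaks in every list. The fold of its peak over background, the enrichment the authors' peak caller gave, was 4.15 and 3.12 in Tfg1-K60,61R-HA, against 2.83 and 1.51 in Tfg1-HA. Its peak was 940 and 918 bp wide in Tfg1-K60,61R-HA, against 857 and 662 bp in Tfg1-HA. Both quantities were lowest in Tfg1-HA replicate 2.

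Because folds of different lists are not on 1 scale, each gene's fold was also ranked among all ORFs with a peak in the same list. HSP12 stood at percentile 92.2 and 87.9 in Tfg1-K60,61R-HA, against 80.4 and 40.8 in Tfg1-HA. RTC3 was likewise wholly covered in all 4 lists, with fold percentiles of 83.5 and 75.2 in Tfg1-K60,61R-HA, against 63.1 and 21.6 in Tfg1-HA. For these genes the groups did not overlap. The peak over RTC3 also took in RPF1 in replicate 1 of both strains, so its fold there is shared between the genes.

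HSP104, the disaggregase that pulls proteins out of aggregates, was wholly covered in 3 lists and to 9.24% in Tfg1-HA replicate 2. Its fold was 3.39 and 1.5 in Tfg1-K60,61R-HA, against 1.76 and 1.23 in Tfg1-HA, and its fold percentile was 89.5 and 40.8 in Tfg1-K60,61R-HA, against 54.7 and 1.02 in Tfg1-HA. The groups overlapped, since Tfg1-K60,61R-HA replicate 2 lay below Tfg1-HA replicate 1. HSP26, a small heat shock protein that holds unfolded proteins, was wholly covered in 3 lists with no peak in Tfg1-HA replicate 2. Its fold was 2.71 and 1.95 in Tfg1-K60,61R-HA and 2.59 in Tfg1-HA replicate 1, in a peak that also covered its neighbour YBR071W.

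HSP42, the other cytosolic small heat shock protein, and HSP78, a mitochondrial relative of HSP104, had a peak in Tfg1-K60,61R-HA replicate 1 alone. HSP42 was covered to 100% at a fold of 1.62, and HSP78 to 96.6% at a fold of 1.33. Among ORFs with a peak in that list, the fold of HSP42 stood at percentile 52.2 and that of HSP78 at 25.3.

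DDR2, a small gene induced by many stresses, was covered to 100% and 55.4% in Tfg1-K60,61R-HA, against 0% in both Tfg1-HA lists. Its folds in Tfg1-K60,61R-HA were 1.54 and 1.5. CTT1, the cytosolic catalase that breaks down hydrogen peroxide, was covered to 99.8% and 97.8% in Tfg1-K60,61R-HA, against 24.5% and 0% in Tfg1-HA. The Tfg1-K60,61R-HA peaks over CTT1 (ORF at chrVII:654634-656322) ran from 4 and 38 bases inside its start to 168 and 189 bases past its end. The peak of Tfg1-HA replicate 1 began 1275 bases inside the ORF and ran 735 bases past its end. The folds of CTT1 were low in every list, at 1.32 and 1.32 in Tfg1-K60,61R-HA, against 1.23 in Tfg1-HA replicate 1.

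**Figure D4:**
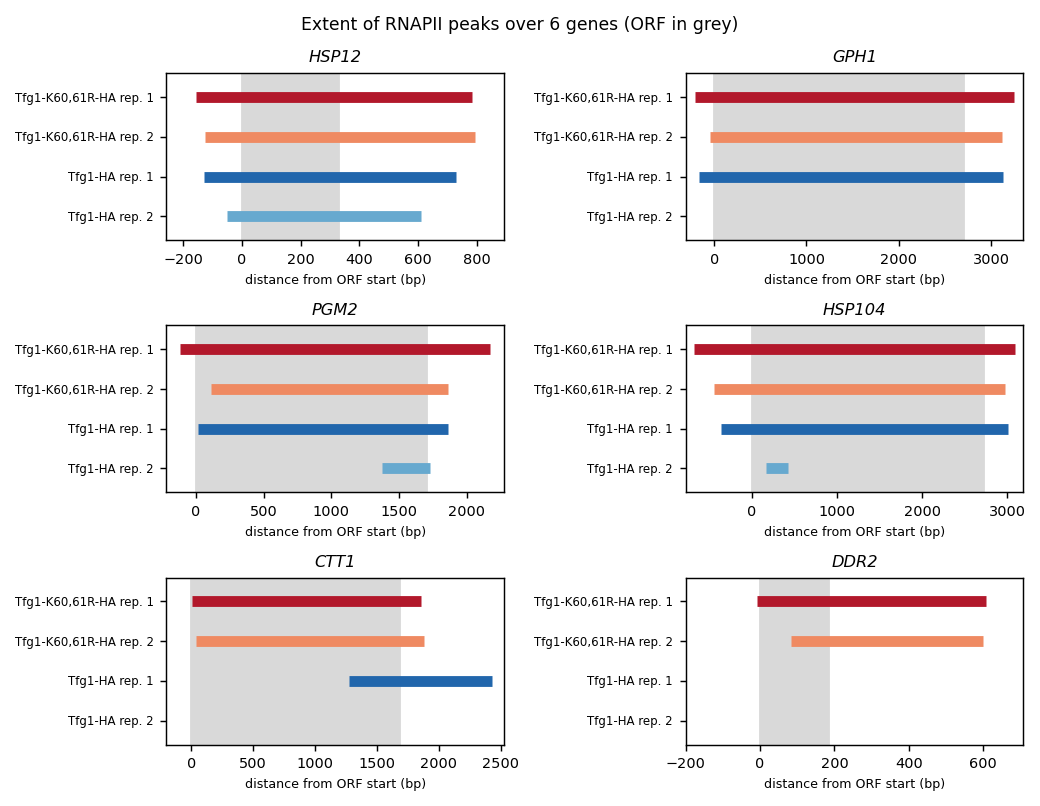
Extent of the RNAPII peaks over HSP12, GPH1, PGM2, HSP104, CTT1 and DDR2, as distance from the ORF start in bp along the direction of transcription. Each bar is 1 peak of the named list and grey is the ORF; HSP12 has a peak in every list, DDR2 in the Tfg1-K60,61R-HA lists alone, and the Tfg1-HA replicate 2 peaks on PGM2 and HSP104 cover 19.8% and 9.24% of the ORF.

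Of the 5 trehalose genes, 4 were occupied in each Tfg1-K60,61R-HA list and in Tfg1-HA replicate 1, and 0 in Tfg1-HA replicate 2. TPS1, the synthase that makes trehalose 6-phosphate, was wholly covered in the first 3 of these lists and to 6.65% in Tfg1-HA replicate 2. Its folds were 1.82 and 1.43 in Tfg1-K60,61R-HA, against 1.54 and 1.36 in Tfg1-HA. These peaks also covered MEO1, and in all lists but Tfg1-K60,61R-HA replicate 2 the vacuolar ATPase gene VMA2, so the signal is not from TPS1 alone.

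TPS2, the phosphatase that turns trehalose 6-phosphate into trehalose, was wholly covered in 3 lists and had no peak in Tfg1-HA replicate 2. Its folds were 2.62 and 1.43 in Tfg1-K60,61R-HA, against 1.55 in Tfg1-HA replicate 1. In that Tfg1-HA list the peak was 8363 bp wide and took in PAA1, IPT1 and SNF11. It was 4537 and 3088 bp wide in Tfg1-K60,61R-HA, and in replicate 1 of that strain it also covered SNF11. Tfg1-K60,61R-HA replicate 1 thus had the highest fold, and Tfg1-K60,61R-HA replicate 2 lay below Tfg1-HA replicate 1.

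TSL1, a regulatory subunit of the synthase complex, was covered to 100% and 68.4% in Tfg1-K60,61R-HA, against 66.8% and 0% in Tfg1-HA. Its fold percentile was 67.7 and 20.5 in Tfg1-K60,61R-HA, against 18.8 in Tfg1-HA replicate 1. Replicate 2 of Tfg1-K60,61R-HA and replicate 1 of Tfg1-HA gave almost the same value for TSL1. The other regulatory subunit, TPS3, had a peak over 23.2% of its length in Tfg1-K60,61R-HA replicate 1, which covered its neighbour TIF11, and none elsewhere.

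NTH1, the neutral trehalase that breaks trehalose down, was covered to 100% and 50.4% in Tfg1-K60,61R-HA, against 100% and 37.5% in Tfg1-HA. These were the values nearest to the 50% limit on either side. Its folds were 1.40 and 1.37 in Tfg1-K60,61R-HA, against 1.47 and 1.46 in Tfg1-HA, in peaks that also covered YRB1. Its fold percentile was 35.24 and 22.1 in Tfg1-K60,61R-HA, against 35.21 and 35.5 in Tfg1-HA. NTH1 was thus a gene of the set with no higher fold in Tfg1-K60,61R-HA, and its percentiles in replicate 1 were almost equal.

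Of the 6 glycogen genes, 5 and 2 were occupied in Tfg1-K60,61R-HA, against 2 and 0 in Tfg1-HA. GPH1, the phosphorylase that releases glucose from glycogen, was wholly covered in 3 lists and had no peak in Tfg1-HA replicate 2. Its folds were 3.13 and 1.42 in Tfg1-K60,61R-HA, against 1.63 in Tfg1-HA replicate 1, at percentiles of 86.9 and 31.0 in Tfg1-K60,61R-HA, against 47.8. The peaks over GPH1 (ORF at chrXVI:861306-864014) were 3461 and 3167 bp wide in Tfg1-K60,61R-HA, against 3302 bp in Tfg1-HA replicate 1, and covered at least 50% of no other ORF. Of these, Tfg1-K60,61R-HA replicate 1 had the widest peak and the highest fold.

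GSY2, the main glycogen synthase, was wholly covered in 3 lists and to 24.4% in Tfg1-HA replicate 2. It was the only gene of the set whose fold percentiles in Tfg1-K60,61R-HA were all below those in Tfg1-HA, at 53.4 and 54.6, against 60.3 and 66.4 in Tfg1-HA (background 43.9%). Its ORF lay in a broad peak of 13235 and 7755 bp in Tfg1-K60,61R-HA, against 10724 and 4338 bp in Tfg1-HA. That peak also covered YLR257W in every list, and HSP60, which encodes the mitochondrial chaperonin, in all but Tfg1-HA replicate 2. In Tfg1-HA replicate 2 it began 3821 bases before the GSY2 ORF and ended 517 bases inside it. The fold given to GSY2 is thus shared in every list. The second glycogen synthase, GSY1, was covered to 100% in Tfg1-K60,61R-HA replicate 1 at a fold of 1.42, and had no peak in any other list.

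GLC3, the glycogen branching enzyme, was covered to 99.1% in Tfg1-K60,61R-HA replicate 1 at a fold of 1.42, and had no peak elsewhere. GAC1, a subunit that directs the phosphatase Glc7 to glycogen synthase, was covered to 99.6% and 1.72% in Tfg1-K60,61R-HA, against 4.45% and 0% in Tfg1-HA. GDB1, the debranching enzyme, had no peak in any list.

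Both genes that link glucose phosphates to UDP-glucose, the precursor of trehalose and glycogen, were occupied in each Tfg1-K60,61R-HA list and in Tfg1-HA replicate 1. PGM2, the main phosphoglucomutase, was covered to 100% and 93.3% in Tfg1-K60,61R-HA, against 99.2% and 19.8% in Tfg1-HA. Its fold percentile was 89.2 and 51.1 in Tfg1-K60,61R-HA, against 46.8 and 19.4 in Tfg1-HA, with folds of 3.31 and 1.65 in Tfg1-K60,61R-HA, against 1.61 and 1.35 in Tfg1-HA. The groups did not overlap for PGM2, although replicate 2 of Tfg1-K60,61R-HA and replicate 1 of Tfg1-HA were close. UGP1, which makes UDP-glucose, was covered to 100% and 93.1% in Tfg1-K60,61R-HA, against 100% and 0% in Tfg1-HA. Its fold percentile was 78.3 and 7.30 in Tfg1-K60,61R-HA, against 21.5 in Tfg1-HA replicate 1, so the Tfg1-K60,61R-HA lists lay on either side of the Tfg1-HA value.

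The 4 pentose phosphate genes had no peak in any list. They were SOL4, GND2, TKL2 and NQM1, the less expressed partners of SOL3, GND1, TKL1 and TAL1, the growth forms of the same enzymes. Of those, GND1, TKL1 and TAL1 were occupied in every list. SOL3 was covered to 16.5% and 10.5% in Tfg1-K60,61R-HA, against 12.9% and 12.7% in Tfg1-HA.

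Of 4 enzymes of glycerol, aldose and aldehyde metabolism, 3 and 2 were occupied in Tfg1-K60,61R-HA, against 2 and 0 in Tfg1-HA. GPD1, the glycerol 3-phosphate dehydrogenase of osmotic adaptation, was wholly covered in 3 lists and had no peak in Tfg1-HA replicate 2. Its folds were 2.10 and 1.82 in Tfg1-K60,61R-HA, against 2.06 in Tfg1-HA replicate 1, and its peak in Tfg1-K60,61R-HA replicate 1 also covered GPM2 and RPN4. GPD2, its paralogue, was covered to 95.2% and 10.4% in Tfg1-K60,61R-HA, against 98.4% and 98.3% in Tfg1-HA. Between the paralogues, the list with low coverage was thus Tfg1-HA replicate 2 for GPD1 and Tfg1-K60,61R-HA replicate 2 for GPD2. GRE3, an aldose reductase, was covered to 100% and 84.5% in Tfg1-K60,61R-HA, against 100% and 0% in Tfg1-HA, at folds of 1.53 and 1.3 in Tfg1-K60,61R-HA, against 1.3 in Tfg1-HA replicate 1.

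ALD3, a cytosolic aldehyde dehydrogenase, was covered to 100% in Tfg1-K60,61R-HA replicate 1 at a fold of 1.70. Its neighbour ALD2 was covered in no list. The ORFs are 1521 bp each, share 91.8% of their bases and lie 689 bp apart. How reads were assigned between them was not tested.

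Of the 4 surface and membrane genes, 2 were occupied in every list and the rest in none. HOR7, a small gene induced by high osmolarity, had the highest fold of the set in every list, at 5.37 and 4.45 in Tfg1-K60,61R-HA, against 4.56 and 2.77 in Tfg1-HA. Its fold percentile was 94.7 and 93.6 in Tfg1-K60,61R-HA, against 91.6 and 78.5 in Tfg1-HA, and the groups did not overlap. Its peak also covered MLO1 in every list but Tfg1-HA replicate 2, so its fold there is shared. YGP1, a secreted glycoprotein, stood at percentile 85.6 and 74.0 in Tfg1-K60,61R-HA, against 82.5 and 75.0 in Tfg1-HA. The groups overlapped for YGP1. Its peak was 3961 to 4211 bp wide across the lists and began 2330 to 2453 bases before its ORF of 1065 bp. Its fold is thus that of a stretch mostly outside the gene. SPI1, a cell wall protein, and PHM7 had no peak in any list.

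Of the 7 remaining genes, 3 and 2 were occupied in Tfg1-K60,61R-HA, against 2 and 2 in Tfg1-HA. STF2, a hydrophilin that protects dry cells, stood at percentile 80.3 and 66.2 in Tfg1-K60,61R-HA, against 73.9 and 47.6 in Tfg1-HA, in a peak that also covered PRP18 and ECT1 in Tfg1-K60,61R-HA replicate 1. PNC1, the nicotinamidase of NAD salvage, stood at 71.8 and 44.5 in Tfg1-K60,61R-HA, against 53.6 and 7.28 in Tfg1-HA. In both genes Tfg1-K60,61R-HA replicate 1 was highest and Tfg1-HA replicate 2 lowest, and the middle lists crossed. MSC1 was covered to 100% and 7.20% in Tfg1-K60,61R-HA, against 2.2% and 0% in Tfg1-HA, in peaks that also covered COX14. TMA10, the paralogue of STF2, was covered to 16.5% in Tfg1-K60,61R-HA replicate 2 alone. XBP1, a repressor induced by stress, DCS2 and SIP18 had no peak in any list.

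Fold ranks were compared list by list. Between replicate 1 of Tfg1-K60,61R-HA and replicate 1 of Tfg1-HA, 20 of the 21 genes with a peak in both had a higher percentile in Tfg1-K60,61R-HA (background 35% of ORFs with a peak in both). These 20 include NTH1, a near tie at 35.24 against 35.21. Between replicate 2 of Tfg1-K60,61R-HA and replicate 2 of Tfg1-HA the count was 8 of 11 (background 28.7%), and between replicate 1 of Tfg1-K60,61R-HA and replicate 2 of Tfg1-HA it was 9 of 11 (background 45.3%). Between replicate 2 of Tfg1-K60,61R-HA and replicate 1 of Tfg1-HA it was 6 of 21 (background 19.5%). The 2 lists in the middle of the occupancy order thus gave most of these genes a lower percentile in Tfg1-K60,61R-HA, as they did most ORFs.

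A peak in all 4 lists was present on 11 of the 40 genes. Of these, 4 had a higher fold percentile in both Tfg1-K60,61R-HA lists than in both Tfg1-HA lists, namely HSP12, RTC3, PGM2 and HOR7 (background 9.65% of the 1202 ORFs with a peak in all 4 lists). The median percentile of the 11 was 83.5 and 54.6 in Tfg1-K60,61R-HA, against 60.3 and 35.5 in Tfg1-HA, a difference in group means of 21.1 points. That difference was 6.70 when Tfg1-K60,61R-HA replicate 1 was left out and 35.5 when Tfg1-K60,61R-HA replicate 2 was, against 33.5 when Tfg1-HA replicate 1 was left out and 11.7 when Tfg1-HA replicate 2 was. With the exchanged genotypes it was −26.8 points, and 0 genes had a higher percentile in both lists of Tfg1-K60,61R-HA (background 2.33%). These genes are the part of the set with a peak even in Tfg1-HA replicate 2, and do not stand for the other 29.

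**Figure D5:**
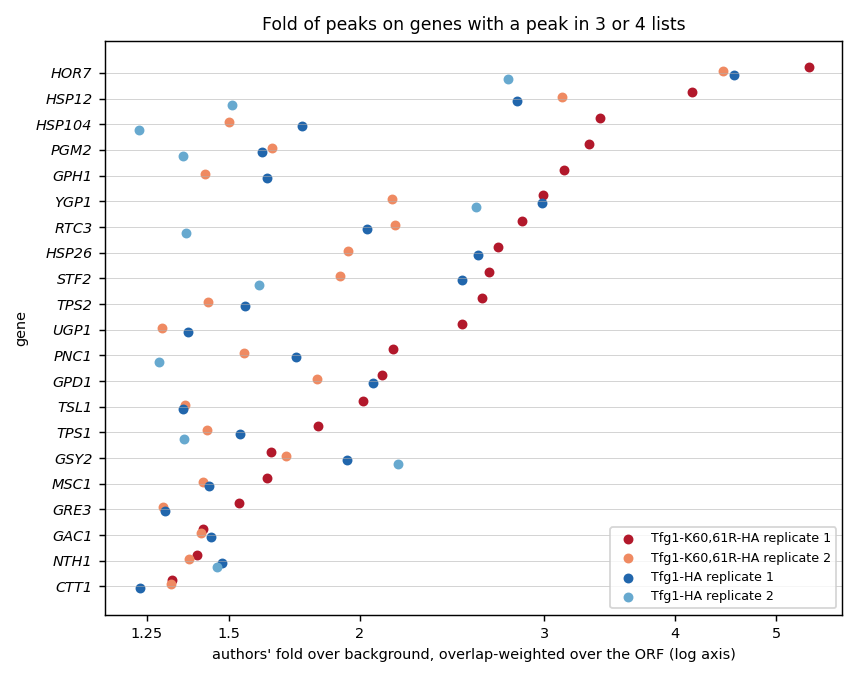
Fold over background of the peaks on each gene with a peak in at least 3 lists, weighted by overlap with the ORF, on a log axis. Each point is 1 list and genes run down the page by fold in Tfg1-K60,61R-HA replicate 1. Dark red points (Tfg1-K60,61R-HA replicate 1) lie farthest right for most genes, while GSY2 has its highest fold, 2.18, in Tfg1-HA replicate 2. The latter peak covers 24.4% of GSY2 and also YLR257W.

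Coverage was compared between the ends of the ORFs. In the 29 genes with a peak in at least 1 list, coverage of the first 10% of the ORF minus that of the last 10% averaged −4.87 and −19.6 percentage points in Tfg1-K60,61R-HA, against −4.22 and −0.58 in Tfg1-HA. A gene with no peak in a list counted as 0 there, and Tfg1-HA replicate 2 had a peak on only 11 genes. No value over all ORFs was set beside these. The difference of group means, −9.81 points, was −17.2 when Tfg1-K60,61R-HA replicate 1 was left out and −2.47 when Tfg1-K60,61R-HA replicate 2 was. It thus rested mainly on Tfg1-K60,61R-HA replicate 2. Among others, its peaks over PNC1, PGM2, UGP1 and GRE3 began 93, 114, 103 and 153 bases inside the ORF. Those over DDR2, TMA10 and MSC1 began 83, 218 and 1431 bases inside, the last in a peak that also covered COX14.

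Not every peak belonged to 1 gene. Of the 27 occupied genes, 17 lay in peaks that covered at least 50% of no other ORF in any list, and 10 shared a peak with a neighbour in at least 1 list. DDR2, CTT1, HSP12, HSP104, GPH1, PGM2, UGP1 and GRE3 were among the 17.

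Other genes of the same pathways were counted in the same way, with no test. Over all 6002 ORFs, 16.9% and 12.7% were occupied in Tfg1-K60,61R-HA, against 19.9% and 17.3% in Tfg1-HA. A peak in at least 1 list was present on 2386 of these ORFs. Of 13 further trehalose and glycogen genes, 2 and 1 were occupied in Tfg1-K60,61R-HA, against 1 and 1 in Tfg1-HA, and 9 had no peak in any list. GLC7, the catalytic subunit of type 1 phosphatase, was occupied in all 4 lists. PIG2, another regulatory partner of Glc7, was covered to 94.5% and 0% in Tfg1-K60,61R-HA, against 4.64% and 0% in Tfg1-HA. Of 20 regulators of the stress response and of protein kinase A, 5 and 3 were occupied in Tfg1-K60,61R-HA, against 5 and 3 in Tfg1-HA. MSN2 had no peak in any list. MSN4 was covered to 84.3% and 59.5% in Tfg1-K60,61R-HA, against 100% and 100% in Tfg1-HA, by a peak that also spanned the neighbouring glycolytic gene FBA1. PDE2, a phosphodiesterase that degrades cyclic AMP, was covered to 47.9% and 14.1% in Tfg1-K60,61R-HA, against 100% and 100% in Tfg1-HA. It was the 1 regulator whose Tfg1-HA lists passed the limit while its Tfg1-K60,61R-HA lists did not, a pattern of 1.73% of all ORFs.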

How the data were processed

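Per the labels and the methods of the study, the authors trimmed reads with TrimGalore, aligned them to sacCer3 with Bowtie2 2.3.5.1, and called broad peaks with MACS2 2.2.7.1 for each IP library separately, with input as control. Each deposited row gives a region, a fold ratio of IP over background, a −log10 p-value and a −log10 q-value. A deposited score column was not used. The lowest −log10 q-value was 1.05. A peak list marks where signal passed the caller's threshold. A gene whose signal changes above that threshold stays occupied.

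The 894 repeated rows were removed from Tfg1-K60,61R-HA replicate 1. Coordinates match R64, the same build as sacCer3. ORFs were taken as annotated, start codon to stop codon. Coverage is the percent of ORF length under peaks, and the fold of an ORF is the overlap-weighted mean of peak folds, turned into a percentile among ORFs with a peak in that list. The measures were tested on simulated peaks. Python 3.11.15, numpy 2.4.6, pandas 2.3.3 and scipy 1.17.1 were used. The differential binding test of the study needs reads and was not run. Input libraries were not analysed here.

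Members, functional groups, partner lists and motifs were chosen with earlier results of these data known. Values are given for members whose coverage or fold percentile did not overlap between groups, for those occupied in 1 to 3 lists and for the highest of those occupied in all 4. The alternatives were other coverage limits, stricter peaks, equal numbers of peaks, other ranks, repeated rows kept, each list left out, 2 genotypes exchanged, a replicate block, and other motif windows and copies.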

Additional observations from a re-analysis of the deposited data

How the results depend on the processing

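Of the alternative values, 81 were counted as unchanged, 22 moved by more and 3 reversed. Unchanged meant within the spread between lists, or within 1.5 times the count. For all ORFs occupied it meant only that the sign was kept, and any overlap gave −382 there in place of −228.5, with a spread of 148. The replicate block was counted as unchanged by construction. All 3 reversals came from exchanging the genotypes of replicate 1 of Tfg1-K60,61R-HA and replicate 2 of Tfg1-HA, as the case of the peak names would have it, which was chosen after seeing the data. Differences were then −9.5 genes occupied, −24.8 points of mean coverage and −26.8 of median percentile, with 0 genes occupied in Tfg1-K60,61R-HA alone (background 0.117%), 0 of higher percentile (2.33%) and 5 of lower (28%), while all ORFs gave −202.5. With peaks of at least 2-fold, the difference in genes occupied was 4.5, the genes occupied in the Tfg1-K60,61R-HA lists alone numbered 0 (background 0.0333%), those of fold percentile above both Tfg1-HA lists 1 (8.33%) and below them 0 (60.5%) of only 2 ranked, and the difference between ORF ends was −1.72 points. The 2 genes occupied in the Tfg1-K60,61R-HA lists alone became 1 at 80% coverage (0.1%) and 1 at any overlap (0.167%). Ranking coverage times fold over all 6002 ORFs, with uncovered ORFs sharing the lowest rank, gave a difference in median percentile of 53.4, with 22 genes higher in Tfg1-K60,61R-HA without overlap (background 8.01%) and 0 lower (6.61%). Genes of lower percentile numbered 0 with 894 peaks per list (32.8%) and 2 with repeated rows kept (45%). At least 2 AGGGG copies were found for 14 genes. The window of 500 bases, chosen after seeing the data, gave 38 genes.

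Leaving out each list in turn, the difference in genes occupied ran between 5.5 and 17.5, in mean coverage between 12.2 and 40.3 points, in median percentile between 6.70 and 35.5, and between ORF ends from −17.2 to −2.47. That in all ORFs occupied ran from −355 to −102. Genes occupied in Tfg1-K60,61R-HA alone numbered 2 to 14, with 9 without Tfg1-K60,61R-HA replicate 2 (background 1.28%) and 14 without Tfg1-HA replicate 1 (0.866%). Genes of higher percentile numbered 4 to 9, with 9 without Tfg1-K60,61R-HA replicate 2 (26.3%) and 8 without Tfg1-HA replicate 1 (23.4%). Those of lower percentile numbered 1 to 3, with 3 without Tfg1-K60,61R-HA replicate 1 (68.5%) and 2 without Tfg1-HA replicate 1 (50.1%). The cause was not tested. With the replicate number as a block, the difference was 9 genes within number 1 and 14 within number 2. Their mean equals the main difference of 11.5 genes by arithmetic, so the block could not change it. The same holds for −228.5 in all ORFs, where sign flips within the pairs (exact permutation) gave p = 0.5, the lowest possible with 2 pairs. Deviations of lists with the same number correlated at 0.123 over 2386 ORFs, and 2 numbers do not establish a pairing. Peak lists without read counts limit precision to calls above the caller's threshold.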
